A study of Mus musculus with 16 samples.

Results

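The genes described here are the integrin subunits and the adaptor proteins that join integrins to the actin cytoskeleton. They were chosen by symbol alone, as the 18 alpha subunit genes and 8 beta subunit genes with the names Itga and Itgb, plus 11 adaptors, namely Tln1, Tln2, Fermt1, Fermt2, Fermt3, Ilk, Parva, Parvb, Parvg, Vcl and Pxn. All 37 members were listed in the 3 data sets of the study, among 38926 gene names for the wildtype and the Lats2 libraries and 21603 genes for the YapTaz libraries.

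Integrins are receptors made of an alpha and a beta subunit, and each subunit reaches the cell surface only as part of such a pair. The alpha subunit largely sets the ligand, which can be collagen, laminin, proteins with an arginine-glycine-aspartate (RGD) motif such as fibronectin, or a counter-receptor on another cell. Talins and kindlins bind the beta tail and switch the receptor to its active form, and the complex of ILK and parvins together with vinculin and paxillin ties it to actin. In endothelium this machinery holds cells to the vascular basement membrane, and in blood cells it serves adhesion to the vessel wall.

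RNA was sequenced from endothelial cells (ECs) sorted from bone of C57BL/6 mice. Metaphyseal ECs (mpECs, 3 libraries) and ECs of the diaphyseal marrow cavity (bmECs, 3 libraries) were taken from wildtype animals of 3 weeks of age in which the Cdh5-mT/nG transgene labels endothelium. In the YapTaz set, 3 control libraries (Yap1flx/flx and Wwtr1flx/flx, Cdh5CreERT2 negative) and 3 libraries labelled ECKO (the same floxed alleles, Cdh5CreERT2 positive) came from postnatal day 21, where Wwtr1 is the gene of Taz. In the Lats2 set, 2 control libraries (Lats2flx/flx, Cdh5CreERT2 negative) and 2 cKO libraries (Lats2flx/flx, Cdh5CreERT2 positive) came from animals of 3 weeks of age according to the methods of the study. The floxed alleles are thus carried by the control groups as well, and the controls were Cre-negative littermates. The Cre recombinase is induced with tamoxifen and driven by Cdh5, so it acts in endothelium of the whole animal and not in bone alone, and how many animals went into a library is not given in the sources used here.

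The values are FPKM, fragments scaled by gene length and by library size, so levels of different genes can be set side by side within a library. Whole reads, each standing for a fragment, could be recovered from them for genes of known length. They came to 11112758 to 14742229 per library for mpECs and bmECs, 4885980 to 7166550 for the YapTaz set and 4729888 to 7067614 for the Lats2 set. These are not library totals. Genes of known length were 93.3% to 94.0% of the genes above 0 in the mpEC, bmEC and Lats2 libraries and 99.9% in the YapTaz set. The targeted genes were read first. Wwtr1 stood at 10.01, 9.88 and 10.3 FPKM in the YapTaz controls and at 15.3, 19.6 and 19.5 FPKM in the libraries labelled ECKO, which goes against that label, and Yap1 stood at 1.07, 1.62 and 0.995 FPKM against 1.43, 1.03 and 0.989 FPKM. Lats2 stood at 23.4 and 24.0 FPKM in the Lats2 controls and 19.2 FPKM in both cKO libraries (adjusted p = 0.125). FPKM is given per whole gene, so none of these values shows whether a floxed part of a targeted gene was lost. The summed level of 8 endothelial markers was 975 to 1227 FPKM in mpECs and bmECs and 1559 to 1733 FPKM in the Lats2 set, but 488 to 498 FPKM in the YapTaz controls and 563 to 648 FPKM in the libraries labelled ECKO. Blood cell markers were present in all sets, and the pan-leukocyte gene Ptprc stood at 12.1 to 32.6 FPKM in mpECs and bmECs, 53.0 to 64.4 FPKM in the YapTaz set and 0.795 to 6.39 FPKM in the Lats2 set. Other blood markers had another order of sets. Summed erythroid markers were at 28311 to 60447 FPKM in mpECs and bmECs, 4457 to 6692 FPKM in the YapTaz set and 243 to 3684 FPKM in the Lats2 set. Summed neutrophil markers were at 9512 to 27913, 1667 to 3886 and 710 to 2914 FPKM in the same order. The hemoglobin gene Hbb-bs was the highest gene in each mpEC and bmEC library, at 10589 to 22050 FPKM.

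Sequence around the annotated start, 250 bases before it to 50 after it, was held by RefSeq tables (GRCm38.p6) for 26 of the 37 members. The 4 windows shown are those of Itgb1, of both starts of Itga3 and of Vcl. Itgb1 encodes the beta subunit with the highest level in each of the 16 libraries, and Itga3 an alpha subunit that pairs with it. Both passed in the Lats2 set described below. Vcl passed in no comparison and is shown as the adaptor with a match. The windows of Itga1, Itga2, Itga5, Itga8, Fermt3, Parvb and Parvg, which passed in a comparison, had no match and are not shown. Capitals mark matches on either strand to GGAATG, the letters bound by the TEAD factors that YAP1 and TAZ act through, or to TGANTCA. The latter is a loose form of the AP-1 motif, in which the middle base is C or G, and allows any base there. The Itga3 match, TGAATCA, fits only the loose form. Itgb1 lies at chr8:128685404-128685703 on the plus strand, the Itga3 windows at chr11:95076665-95076964 and chr11:95069149-95069448 on the minus strand, and Vcl at chr14:20929148-20929447 on the plus strand.
Itgb1: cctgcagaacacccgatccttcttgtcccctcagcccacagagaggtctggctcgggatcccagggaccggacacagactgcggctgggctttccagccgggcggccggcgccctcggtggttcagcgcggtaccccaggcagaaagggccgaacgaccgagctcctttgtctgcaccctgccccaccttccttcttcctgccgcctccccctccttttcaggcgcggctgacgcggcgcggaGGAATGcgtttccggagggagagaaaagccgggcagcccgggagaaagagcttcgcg
Itga3, start at the gene's outer end: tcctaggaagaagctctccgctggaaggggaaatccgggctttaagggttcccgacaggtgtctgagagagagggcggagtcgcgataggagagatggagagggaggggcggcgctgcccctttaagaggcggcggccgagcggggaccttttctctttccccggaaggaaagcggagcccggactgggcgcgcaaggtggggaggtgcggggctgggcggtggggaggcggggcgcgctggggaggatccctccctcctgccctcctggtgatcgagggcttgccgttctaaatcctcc
Itga3, inner start: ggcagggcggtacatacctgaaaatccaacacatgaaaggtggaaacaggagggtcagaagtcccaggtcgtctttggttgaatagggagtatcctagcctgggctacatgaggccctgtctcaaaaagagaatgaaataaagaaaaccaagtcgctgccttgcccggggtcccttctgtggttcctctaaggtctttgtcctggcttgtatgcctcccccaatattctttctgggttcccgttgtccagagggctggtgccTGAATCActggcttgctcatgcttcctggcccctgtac
Vcl: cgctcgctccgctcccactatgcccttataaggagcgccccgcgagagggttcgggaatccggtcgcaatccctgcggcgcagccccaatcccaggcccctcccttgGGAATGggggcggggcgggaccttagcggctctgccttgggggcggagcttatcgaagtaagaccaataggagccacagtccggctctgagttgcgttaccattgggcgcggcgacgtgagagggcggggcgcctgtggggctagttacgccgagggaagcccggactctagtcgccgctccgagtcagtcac
GGAATG was found in 3 of the 30 members' windows (10%, those of Itga10, Itgb1 and Vcl), against 14.7% of the 32851 windows of all genes, and TGANTCA in 3 (10%, Itga3, Itga9 and Itgax) against 7.81%. The members' shares were thus no larger than those of all genes for GGAATG and close to them for TGANTCA. These matches are letters in a window and no measure of binding.

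The first comparison was between bmECs and mpECs. Itga1, the alpha subunit of a collagen receptor, was higher in bmECs, while Itga2, the alpha subunit of another collagen receptor, the laminin receptor subunit Itga6, the fibronectin receptor subunit Itga5 and the common beta subunit Itgb1 were lower. Log2 fold changes are limma estimates on log2(FPKM + 1), a scale that understates the change of low genes, and p is adjusted over all genes tested. Of the 25 members with a mean of at least 1 FPKM, 1 passed the test as higher (4%) and 4 as lower (16%) at an adjusted p under 0.05. Over all 11422 genes tested, 13.0% passed as higher and 10.5% as lower. The median log2 fold change of the 25 members was -0.24, beside 0.00 (-0.000677) for all genes tested. No adaptor passed among the 9 tested in limma, and 1 had an unadjusted p under 0.05, as had 9 of all 25 members and 36.1% of all genes tested. At an adjusted p under 0.01 with an absolute log2 fold change over 0.5, Itga1 passed as higher (6.51% of all genes) and Itga2 and Itgb1 as lower (5.17%).

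Itga1 (chromosome 13, 114953096 to 115101964) stood at 18.1, 22.7 and 19.2 FPKM in mpECs and at 47.1, 51.5 and 42.8 FPKM in bmECs. All bmEC libraries lay above all mpEC libraries, and the means of 19.99 ± 2.39 and 47.2 ± 4.34 FPKM (SD, n = 3) differed 2.36-fold, with a log2 fold change of 1.20 (standard error 0.11 with adjusted p = 0.00025). Its neighbor Itga2 (chromosome 13, 114833081 to 114932100) moved the other way, from 4.90, 6.11 and 6.72 FPKM in mpECs to 2.74, 2.33 and 2.68 FPKM in bmECs. The ranges did not overlap, and the log2 fold change was -0.94 (standard error 0.13 with adjusted p = 0.00185). Summed markers of pericytes and marrow stroma moved with Itga1, at 151 to 225 FPKM in mpECs and 459 to 496 FPKM in bmECs. Most of that sum was Kcnj8, at 131 to 199 FPKM in mpECs and 440 to 465 FPKM in bmECs, while Pdgfrb, the defining gene, did not exceed 0.174 FPKM. The other collagen-binding subunits, Itga10 and Itga11, did not exceed 0.142 FPKM in any of these libraries.

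Itgb1 (chromosome 8, 128685654 to 128733200) encodes the beta subunit shared by the collagen, laminin and fibronectin receptors. It stood at 176, 203 and 189 FPKM in mpECs and at 115, 135 and 116 FPKM in bmECs. Every bmEC library was below every mpEC library, with a level 1.55-fold higher in mpECs and a log2 fold change of -0.63 (standard error 0.10 with adjusted p = 0.00256). Relative to the endothelial gene Cdh5, which did not pass the test (adjusted p = 0.688), the Itgb1 level was 1.19, 0.999 and 0.999 times that of Cdh5 in mpECs and 0.695, 0.842 and 0.635 times in bmECs. Of the 8 endothelial markers, Pecam1, Emcn and Tie1 were lower in bmECs (log2 fold changes of -0.58, -0.73 and -0.70), Kdr, Tek and Erg were higher (0.67, 0.49 and 0.40), and Cdh5 and Egfl7 did not pass. Summed osteoblast markers moved in the direction of Itgb1, Itga2, Itga5 and Itga6, with sums of 762, 400 and 152 FPKM in mpECs and 43.0 to 55.2 FPKM in bmECs. Most of the bmEC sum was Ibsp, named after its values were seen, which did not pass and whose groups overlapped. It stood at 106, 40.6 and 32.8 FPKM in mpECs and 38.8, 46.8 and 38.4 FPKM in bmECs. The part of the marrow stromal and osteoblast markers in the results for these subunits was not tested. The ratio of Itga1 to Cdh5 was 0.102 to 0.122 in mpECs and 0.235 to 0.322 in bmECs.

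Among alpha subunits for laminin, Itga6 (chromosome 2, 71745616 to 71858416) stood at 17.3, 21.8 and 20.5 FPKM in mpECs and 11.1, 15.9 and 9.14 FPKM in bmECs. The groups did not overlap, and the log2 fold change was -0.70 (standard error 0.19 with adjusted p = 0.0284). Itga3, the other laminin-binding subunit tested, was low, with 1.54, 2.12 and 1.95 FPKM in mpECs and 0.766, 1.13 and 1.23 FPKM in bmECs. Its ranges did not overlap either, but the log2 fold change of -0.49 missed the threshold (adjusted p = 0.0524). Itga5 (chromosome 15, 103344286 to 103366763), which pairs with the Itgb1 product to bind fibronectin, stood at 18.0, 25.5 and 27.0 FPKM in mpECs and 11.8, 12.9 and 16.6 FPKM in bmECs. The gap between the groups was small, from 16.6 to 18.0 FPKM, and the log2 fold change was -0.72 (standard error 0.18 with adjusted p = 0.0209). The remaining RGD-binding subunits Itga8, Itgav and Itga2b had overlapping groups, with log2 fold changes between -0.12 and 0.09.

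With these changes the make-up of the alpha subunit mRNA differed between the sites. Itga1 held 18.9% to 22.2% of the summed alpha subunit FPKM in mpECs and 43.1% to 48.7% in bmECs. Itga5 held 20.8% to 26.5% in mpECs and 12.0% to 16.7% in bmECs, and Itga6 held 20.01% to 21.3% and 9.20% to 15.1%. Itgb1 held 80.7% ± 6.37 of the summed beta subunit FPKM in mpECs and 81.1% ± 3.997 in bmECs (SD, n = 3), which is a difference within the spread of the libraries.

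**Figure D1:**
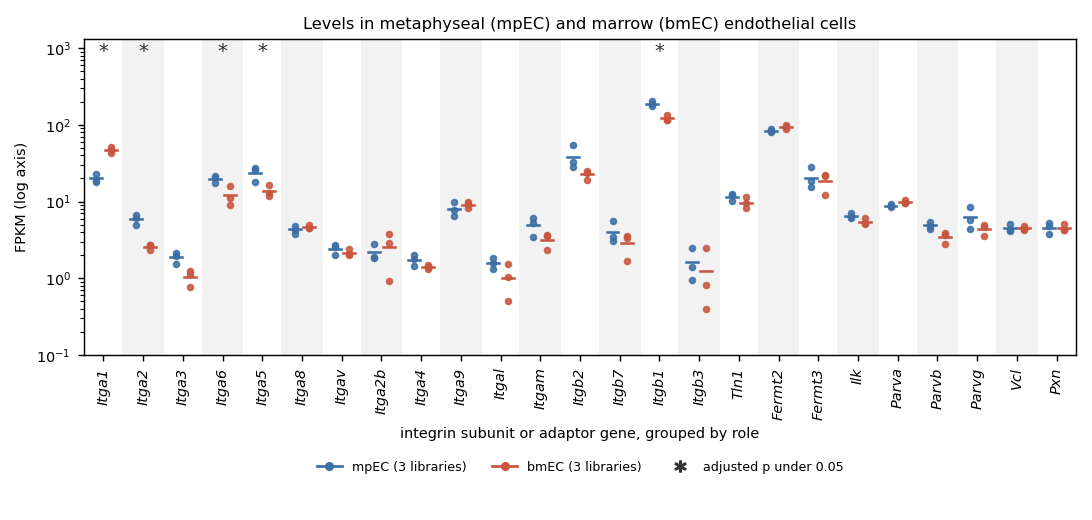
FPKM (log axis) of the 25 members tested in mpECs and bmECs, with a point for each library and a line for the mean of 3. Itga1 is the member whose bmEC points lie clearly above the mpEC points, Itga2, Itga6, Itga5 and Itgb1 lie below, and none of the adaptors at the right passed.

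No adaptor passed between the sites, although the groups of Ilk and Parvb lay lower and those of Parva higher in bmECs with no overlap. Fermt2, the kindlin of adherent cells, stood at 80.5, 87.7 and 84.3 FPKM in mpECs and at 94.1, 98.5 and 87.6 FPKM in bmECs, with overlapping groups (log2 fold change 0.15, adjusted p = 0.223). Tln1, the main talin, ranged from 8.31 to 12.4 FPKM over both groups. Parvb had the largest difference of the adaptors, with 4.36, 4.79 and 5.48 FPKM in mpECs and 2.75, 3.88 and 3.67 FPKM in bmECs (log2 fold change -0.41, adjusted p = 0.0695). Vcl and Pxn had log2 fold changes of -0.01 and -0.00115, and Ilk and Parva of -0.22 and 0.15. Reads of Ilk cannot be told apart from those of overlapping genes without strand, since 89.7% of its exon bases overlap Rrp8 and Taf10 on the other strand and no source used here gives the strand setting. The same holds for 25.5% of the exon bases of Vcl. The leukocyte subunit gene Itgam shares 68.7% of its exon bases with Gm49368 on the same strand, where no strand setting can part the reads.

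No member that belongs to blood cells passed in bmECs against mpECs. The 9 leukocyte-type members were Itgad, Itgae, Itgal, Itgam, Itgax, Itgb2, Itgb7, Fermt3 and Parvg, and Itga4 was not among them. The 6 that could be tested all had a negative log2 fold change. Of the 6, 2 had an unadjusted p under 0.05 in limma, beside 36.1% of all genes tested. The untested Itgad stood at 0.269, 0.111 and 0.0913 FPKM in mpECs and 0.269, 0.586 and 0.151 FPKM in bmECs. Itgb2, the beta subunit of leukocyte integrins, stood at 54.6, 27.8 and 32.6 FPKM in mpECs and 24.8, 19.3 and 23.7 FPKM in bmECs (log2 fold change -0.69, adjusted p = 0.0659). It was 1.65 to 1.69 times the Ptprc level in mpECs and 1.502 to 1.61 times in bmECs, so it was high in the library that was high in Ptprc. Summed neutrophil markers moved with Itgb2, at 11691 to 27913 FPKM in mpECs and 9512 to 13935 FPKM in bmECs, and their part in the result was not tested. Fermt3 stood at 27.8, 15.4 and 18.3 FPKM in mpECs and 21.3, 12.2 and 21.8 FPKM in bmECs (log2 fold change -0.15, adjusted p = 0.723). Its ratio to Ptprc went the other way, at 0.854 to 0.945 in mpECs and 1.01 to 1.38 in bmECs. In sorted bulk samples, fewer cells of a type and less RNA per cell cannot be told apart.

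The 12 members under the filter, Itga10, Itga11, Itga7, Itgad, Itgae, Itgax, Itgb4, Itgb5, Itgb6, Itgb8, Tln2 and Fermt1, did not exceed 1.39 FPKM in any mpEC or bmEC library. Groups of 2 members did not overlap as higher and of 8 as lower, where 22.1% and 19.2% of all genes tested did so. The calls of Itga1, Itga2 and Itgb1 held without any 1 library, but 2 in place of 4 members were lower without mpEC replicate 3 or without bmEC replicate 1. Over all genes, 799 and 882 were then lower in place of 1201. Itga5 lost its call without mpEC replicate 2 or 3 or bmEC replicate 1 or 2 (adjusted p of 0.0661, 0.0762, 0.0703 and 0.0672), and Itga6 without mpEC replicate 2 or 3 or bmEC replicate 1 or 3 (0.0847, 0.0878, 0.0841 and 0.0713).

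The YapTaz set compared the libraries labelled ECKO with their controls. Since Wwtr1 was higher in the libraries labelled ECKO, each direction given here is that of the label. Of the 28 members tested, none passed as higher in limma and 1, Itgal, passed as lower (3.57%), and 5 had an unadjusted p under 0.05 (17.9%, beside 17.9% of all genes tested). No member passed the stricter rule as higher or lower, where 0.00883% of all genes were lower. Over all 11320 genes tested, 0.883% passed as higher and 0.424% as lower. The median log2 fold change of the members was -0.02, beside -0.00472 for all genes tested.

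Itgal (chromosome 7, 127296260 to 127335138), the alpha subunit of the lymphocyte integrin that binds ICAM proteins, stood at 5.71, 7.83 and 6.00 FPKM in the controls and at 3.46, 2.87 and 3.56 FPKM in the libraries labelled ECKO. The groups did not overlap, and the log2 fold change was -0.80 (standard error 0.14 with adjusted p = 0.0387). Its ratio to Ptprc was 0.0887 to 0.148 in the controls and 0.0461 to 0.0637 in the libraries labelled ECKO, while Ptprc itself overlapped between the groups. Summed B cell markers moved with it, at 265 to 317 FPKM in the controls and 221 to 224 FPKM in the libraries labelled ECKO, and their part in the result was not tested. Its partner Itgb2 stood at 43.8, 39.1 and 51.1 FPKM in the controls and 42.1, 38.4 and 38.4 FPKM in the libraries labelled ECKO, with no call (log2 fold change -0.16, adjusted p = 0.491).

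No subunit of adherent cells passed the test in the YapTaz set. Itga8, an RGD-binding subunit found in mesenchymal and contractile cells, stood at 1.22, 1.46 and 2.38 FPKM in the controls and 4.42, 3.48 and 3.12 FPKM in the libraries labelled ECKO (log2 fold change 0.81, standard error 0.19 with adjusted p = 0.0654). Itga3 stood at 2.58, 3.31 and 2.46 FPKM against 5.48, 4.25 and 3.95 FPKM (log2 fold change 0.55, adjusted p = 0.103). Neither pair of groups overlapped. Endothelial markers moved with these genes (488 to 498 FPKM in the controls and 563 to 648 FPKM in the libraries labelled ECKO), as did pericyte and stromal markers (57.0 to 65.9 FPKM against 75.0 to 98.9 FPKM), and their part was not tested. Fermt2 had a log2 fold change of 0.59 (adjusted p = 0.141) and Itga2 of 0.49 (adjusted p = 0.152). The groups of 6 members did not overlap as higher and of 3 as lower, where 12.3% and 11.3% of all genes tested did so.

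Itgb1 stood at 52.1, 62.1 and 66.1 FPKM in the YapTaz controls and at 61.1, 63.0 and 61.8 FPKM in the libraries labelled ECKO. The groups overlapped, and the log2 fold change of 0.05 had a standard error of 0.11 (adjusted p = 0.853). Itga1 had a log2 fold change of 0.08 (adjusted p = 0.803), Itga5 of 0.23 (adjusted p = 0.493) and Itga6 of 0.20 (adjusted p = 0.298). The fit's standard errors of 0.09 to 0.21 over the 28 members set the size of difference that could be told from the spread of the libraries.

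Integrin genes of blood cells stood high in all 6 libraries of the YapTaz set. Itgad, the alpha subunit of an integrin of macrophages, stood at 47.6, 42.5 and 39.9 FPKM in the controls and 47.2, 42.7 and 42.3 FPKM in the libraries labelled ECKO, and was the alpha subunit with the highest level in each. In mpECs and bmECs it did not exceed 0.586 FPKM. Fermt3, the kindlin of blood cells, ranged from 129 to 156 FPKM and Parvg, their parvin, from 62.6 to 81.8 FPKM. Itgb5, a partner of the alpha V subunit, stood at 26.6, 23.3 and 24.5 FPKM in the controls and 23.3, 21.2 and 24.2 FPKM in the libraries labelled ECKO, and Tln1 at 79.3, 103 and 88.6 FPKM against 85.4, 89.0 and 97.2 FPKM. The macrophage genes C1qa and Adgre1 were high beside them, at 360 to 524 FPKM and 65.8 to 140 FPKM in these libraries. In mpECs and bmECs they stood at 4.63 to 10.5 FPKM and 2.49 to 5.95 FPKM. The summed macrophage and monocyte list did not follow them. It was at 1608 to 2326 FPKM in the YapTaz set and at 1168 to 2289 FPKM in mpECs and bmECs, which are overlapping ranges. The part of these markers was not tested. Because the data sets were normalized apart from one another, levels in different sets are side by side here as a description only.

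The beta subunit mRNA of the YapTaz set was mixed. Itgb1 held 38.8% ± 3.51 of the summed beta subunit FPKM in the controls and 41.6% ± 1.26 in the libraries labelled ECKO (SD, n = 3). Itgb2 held 26.0% to 30.8% over the 6 libraries. Without the leukocyte subunits Itgb2 and Itgb7, the share of Itgb1 was 66.1% in the controls and 68.5% in the libraries labelled ECKO. In mpECs and bmECs the same reckoning gave 98.4% and 97.8%.

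**Figure D2:**
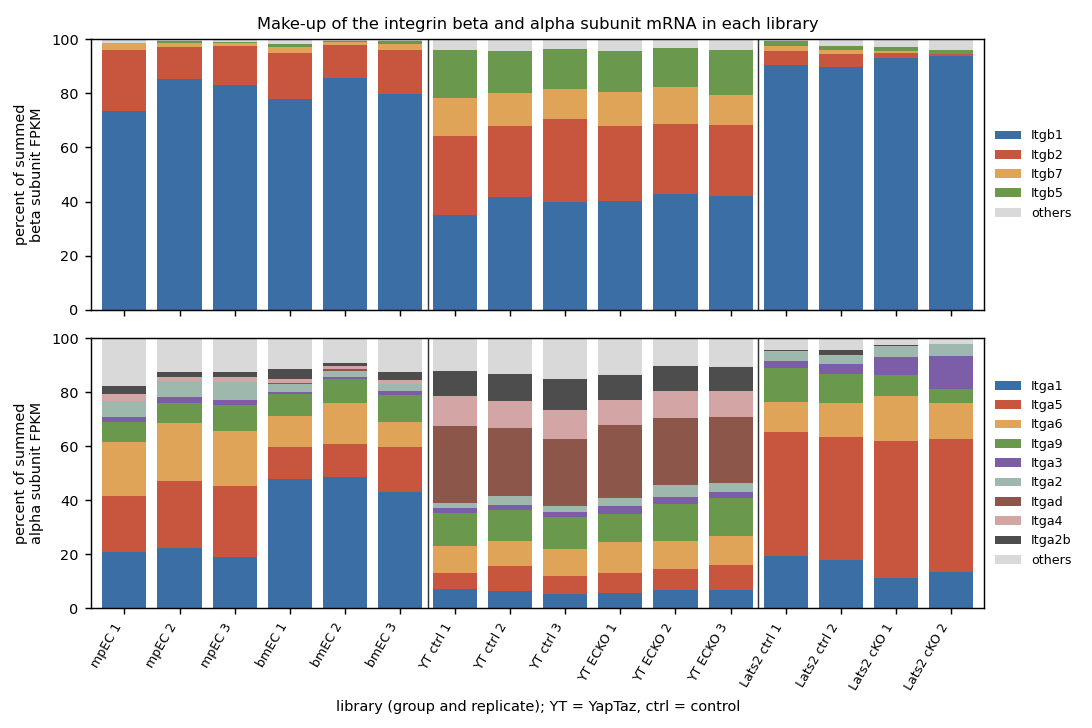
Percent of the summed beta subunit FPKM (top) and alpha subunit FPKM (bottom) held by each gene in each of the 16 libraries, with the 3 data sets parted by vertical lines. Itgb1 holds 73.4% or more of the beta pool in mpECs, bmECs and the Lats2 set but 34.9% to 42.6% in the YapTaz set, where Itgad leads the alpha pool, and Itga1 takes 43.1% to 48.7% of the alpha pool in bmECs.

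The 9 members under the filter in the YapTaz set (Itga10, Itga11, Itga7, Itgae, Itgb4, Itgb6, Itgb8, Tln2 and Fermt1) did not exceed 0.855 FPKM. Of the adaptors tested, Ilk was lower in each library labelled ECKO without passing, at 23.3, 24.5 and 24.9 FPKM in the controls and 21.8, 20.6 and 20.9 FPKM in the libraries labelled ECKO (adjusted p = 0.299), and Pxn was higher without passing, at 20.52, 23.9 and 22.9 FPKM against 25.2, 24.7 and 26.5 FPKM (adjusted p = 0.368). The call of Itgal was lost without control replicate 2 or 3 or ECKO replicate 2 or 3 of the YapTaz set (adjusted p of 0.0933, 0.0876, 0.201 and 0.156), each time with no member left as lower. Over all genes, 9, 6, 1 and 1 were then lower in place of 48. With limma-voom on recovered reads Itga8 passed as higher, with a log2 fold change of 1.13 and an adjusted p of 0.0236.

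The Lats2 set compared Lats2 cKO with Lats2 control ECs. The laminin-binding subunit Itga3, the common beta subunit Itgb1 and the actin-linking parvin Parvb were higher in cKO, and the blood cell kindlin Fermt3, the blood cell parvin Parvg and the RGD-binding subunit Itga8 were lower. Of the 27 members tested, 3 passed as higher (11.1%) and 3 as lower (11.1%), where 11.8% and 9.98% of all 12453 genes tested did so. An unadjusted p under 0.05 was reached by 20 of the 27, beside 38.6% of all genes tested. The cKO libraries stood apart in other measures too. The gene Gm23935, the highest in each, was at 6093 and 7629 FPKM in the controls and 15846 and 26667 FPKM in cKO, and the top 10 genes held 8.67% and 8.87% of the summed FPKM against 12.8% and 16.8%. No member passed the stricter rule, where 0.851% of all genes were higher and 1.21% lower. The median log2 fold change was 0.27 over the members and -0.00325 over all genes tested.

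Itga3 (chromosome 11, 95044474 to 95076801) had the largest rise of the 3. It stood at 7.36 and 10.3 FPKM in the controls and 23.1 and 36.0 FPKM in cKO, with no overlap. The means of 8.84 ± 2.11 and 29.5 ± 9.14 FPKM (SD, n = 2) differed 3.34-fold, a log2 fold change of 1.62 (standard error 0.26 with adjusted p = 0.0174). Itgb1 stood at 244 and 267 FPKM in the controls and 410 and 369 FPKM in cKO, a 1.52-fold difference with no overlap (log2 fold change 0.61, standard error 0.13 with adjusted p = 0.0328). Under quantile normalization the Itgb1 log2 fold change was 0.35 and did not pass (adjusted p = 0.201). The ratio of Itgb1 to Cdh5 was 1.07 and 0.997 in the controls and 1.49 and 1.33 in cKO. Summed smooth muscle markers moved with these genes, at 5.87 and 11.6 FPKM in the controls and 32.9 and 47.7 FPKM in cKO, most of it Tagln, while Myh11 did not exceed 0.360 FPKM and Cnn1 was listed at 0 in both cKO libraries. Their part in the rises of Itga3, Itgb1 and Parvb was not tested. The ratio of Itga3 to Cdh5 was 0.0321 and 0.0387 in the controls and 0.0836 and 0.130 in cKO. Parvb (chromosome 15, 84232043 to 84315688), which binds ILK, stood at 2.55 and 2.70 FPKM in the controls and 5.10 and 7.73 FPKM in cKO (log2 fold change 1.01, standard error 0.22 with adjusted p = 0.0326).

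The other members outside the leukocyte-type list that were higher in cKO did not pass, of which Itgb4 and Itgb3 are named after their values were seen. Itgb4, the beta partner of the alpha 6 subunit in hemidesmosomes, stood at 1.404 and 3.76 FPKM in the controls and 6.95 and 7.19 FPKM in cKO (log2 fold change 1.25, adjusted p = 0.0546). Itgb3, a partner of the alpha V and alpha IIb subunits, stood at 0.375 and 3.02 FPKM against 4.67 and 8.58 FPKM (log2 fold change 1.65, adjusted p = 0.0916), so that its controls differed more from each other than its cKO libraries did on a ratio scale. Itga2 was at 8.01 and 9.06 FPKM against 12.95 and 11.9 FPKM (log2 fold change 0.50, adjusted p = 0.057). Vcl was at 31.6 and 40.6 FPKM against 61.1 and 47.6 FPKM (log2 fold change 0.58, adjusted p = 0.0854). None of these pairs of groups overlapped. Ilk stood at 79.7 and 91.6 FPKM in the controls and 105 and 126 FPKM in cKO (adjusted p = 0.0996), and Parva at 19.9 and 21.8 FPKM against 27.0 and 26.2 FPKM (adjusted p = 0.102).

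Itga5 stood at 119 and 131 FPKM in the controls and 167 and 141 FPKM in cKO (log2 fold change 0.30, adjusted p = 0.178), and Itga6 at 27.8 and 35.2 FPKM against 55.5 and 37.8 FPKM (log2 fold change 0.54, adjusted p = 0.146). Neither passed, although in both cases the cKO libraries were above the controls. Fermt2 had a log2 fold change of 0.18 (SE 0.15) and Tln1 of -0.03 (SE 0.17), neither of which passed.

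Of the members other than leukocyte-type, 6 were lower in cKO, namely Itga1, Itga9, Pxn, Itga8, Itga2b and Tln1. Itga2b, named after its values were seen, had overlapping groups (log2 fold change -0.90, adjusted p = 0.298). Itga1 stood at 49.8 and 51.0 FPKM in the controls and 37.6 and 38.4 FPKM in cKO, with no overlap and no call (log2 fold change -0.40, standard error 0.11 with adjusted p = 0.0565). Itga9, which binds tenascin and VCAM1, stood at 32.6 and 31.0 FPKM against 25.3 and 14.9 FPKM (adjusted p = 0.112), and Pxn at 38.7 and 45.9 FPKM against 33.4 and 29.0 FPKM (adjusted p = 0.0941). Itga8 (chromosome 2, 12106632 to 12301922) fell from 2.98 and 3.40 FPKM to 0.437 and 0.359 FPKM, a level 8.02-fold higher in the controls (log2 fold change -1.58, standard error 0.22 with adjusted p = 0.0133). Its recovered reads numbered 12 in the library with the fewest and 149 in that with the most. Summed markers of pericytes and marrow stroma moved with it, at 368 and 406 FPKM in the controls and 95.9 and 76.7 FPKM in cKO, most of it Kcnj8 (359 and 398 against 82.6 and 55.4 FPKM), although Pdgfrb, their defining gene, was at 0.587 and 0.215 FPKM in the controls and at 1.69 and 3.63 FPKM in cKO.

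**Figure D3:**
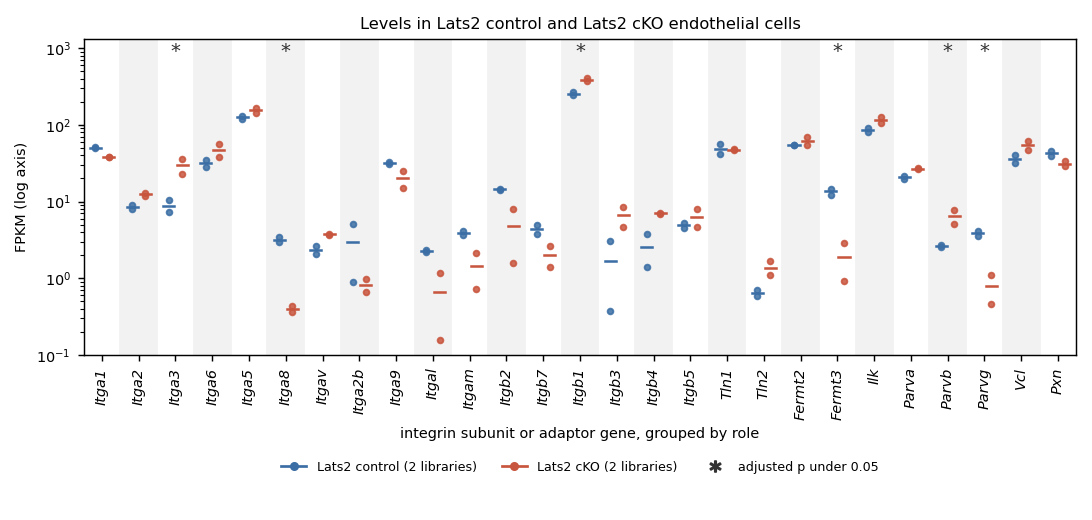
FPKM (log axis) of the 27 members tested in Lats2 control and cKO libraries, with a point for each library and a line for the mean of 2. Itga3, Itgb1 and Parvb lie higher in cKO, Itga8, Fermt3 and Parvg lower, and the points of the leukocyte genes from Itgal to Itgb7, none of which passed, lie lower in cKO.

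Among the members of blood cells, Fermt3 and Parvg were lower in cKO. All 6 leukocyte-type members that could be tested were negative and did not overlap between the groups, where 34.2% of all genes tested did so as lower. Of the 6, 2 passed, where 9.98% of all genes tested passed as lower. The untested Itgae went the other way in 1 library, at 0.132 and 0.183 FPKM in the controls and 0.347 and 0.175 FPKM in cKO. Fermt3 (chromosome 19, 6998958 to 7019469) stood at 12.3 and 14.8 FPKM in the controls and 2.87 and 0.932 FPKM in cKO (log2 fold change -2.40, standard error 0.35 with adjusted p = 0.0143). Parvg (chromosome 15, 84324026 to 84342978) stood at 4.16 and 3.54 FPKM against 1.11 and 0.455 FPKM (log2 fold change -1.46, standard error 0.26 with adjusted p = 0.0214). Itgb2 stood at 14.7 and 14.0 FPKM against 7.99 and 1.58 FPKM (log2 fold change -1.67, standard error 0.57 with adjusted p = 0.0938), with the 2 cKO libraries far apart. Ptprc moved with these genes, at 6.39 and 5.57 FPKM in the controls and 2.80 and 0.795 FPKM in cKO, as did the summed markers of macrophages and monocytes (744 and 640 against 376 and 115 FPKM) and of neutrophils (2914 and 1963 against 861 and 710 FPKM). The macrophage gene C1qa went against its list, at 1.74 and 0.647 FPKM in the controls and 7.39 and 3.09 FPKM in cKO. The ratio of Itgb2 to Ptprc was 2.30 and 2.52 in the controls and 2.86 and 1.99 in cKO, whereas that of Fermt3 to Ptprc was 1.92 and 2.65 in the controls and 1.03 and 1.17 in cKO. The part of the blood cell markers in these results was not tested.

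Itgb1 held 90.2% ± 0.315 of the summed beta subunit FPKM in the controls and 93.6% ± 0.619 in cKO (SD, n = 2). Without Itgb2 and Itgb7 the order turned, with 96.6% in the controls and 95.1% in cKO. Of the alpha subunits, Itga3 held 2.85% and 3.61% in the controls and 6.96% and 12.5% in cKO, Itga1 held 19.3% and 17.8% against 11.3% and 13.4%, and Itga5 held 46.1% and 45.7% against 50.5% and 49.3%.

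The 10 members under the filter in the Lats2 set (Itga10, Itga11, Itga7, Itga4, Itgad, Itgae, Itgax, Itgb6, Itgb8 and Fermt1) did not exceed 0.690 FPKM. The groups of 14 members did not overlap as higher and of 10 as lower, where 34.0% and 34.2% of all genes tested did so. With 2 libraries per group each count rested on single libraries. Leaving out any library left a group with a single library, whose spread cannot be measured, so the calls could not be checked in this way. Only the log2 fold changes of such fits are given. They ranged from 1.31 to 1.93 for Itga3, from 0.53 to 0.68 for Itgb1 and from 0.75 to 1.27 for Parvb. The falls ranged from -2.90 to -1.90 for Fermt3, from -1.65 to -1.51 for Itga8 and from -1.73 to -1.19 for Parvg.

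**Figure D4:**
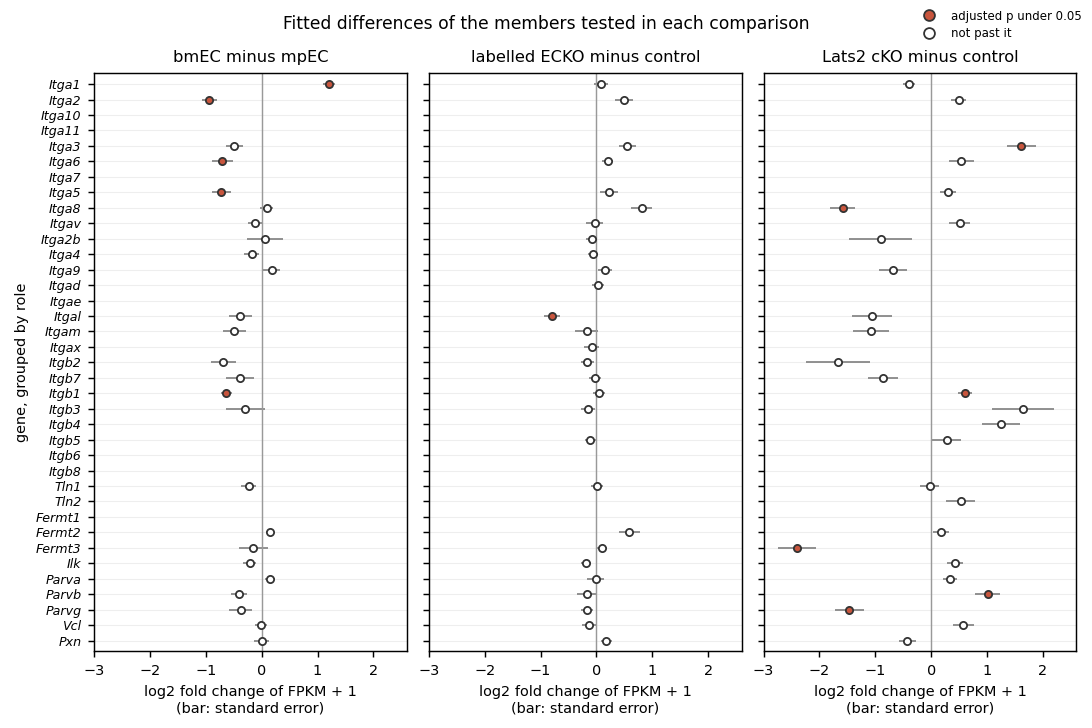
Log2 fold change of FPKM + 1 with its standard error for each member tested in the 3 comparisons, in order of role from collagen-binding subunits at the top to paxillin at the bottom; filled points have an adjusted p under 0.05. Itga1 and Itgb1 lie on opposite sides of 0 in bmECs minus mpECs (1.20 and -0.63) and again, with the sides exchanged, in Lats2 cKO minus control (-0.40 and 0.61).

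Set side by side, the 5 members called in bmECs against mpECs had the opposite sign in Lats2 cKO against control. The log2 fold changes were 1.20 and -0.40 for Itga1, -0.94 and 0.50 for Itga2, -0.63 and 0.61 for Itgb1, -0.70 and 0.54 for Itga6 and -0.72 and 0.30 for Itga5, of which that of Itgb1 alone passed the test in both. Under quantile normalization the Lats2 call of Itgb1 was lost, as given above. The comparisons of bmECs with mpECs and of Lats2 cKO with control share no library. Over all 24 members tested in both, 14 had opposite signs (58.3%), where 63.0% of the 10471 genes tested in both did so. The members' share was thus near that of all genes. The 5 members were picked by their calls, and the share among all genes called in bmECs against mpECs was not counted. Between bmECs against mpECs and the YapTaz set, 10 of 25 members had opposite signs (40%, beside 45.4% of all genes), with the direction of the YapTaz set taken from the label.

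Ligands of the members were read from lists. Of 15 matrix ligands tested in bmECs against mpECs, 12 were lower and 1 was higher, with a median log2 fold change of -1.43, where 10.5% and 13.0% of all genes were lower and higher. The largest falls were those of Col1a1 (log2 fold change -4.99), Spp1 (-4.64) and Col1a2 (-3.72), bone matrix genes. Summed osteoblast markers, which include Col1a1 and Col1a2, moved with them, at 152 to 762 FPKM in mpECs and 43.0 to 55.2 FPKM in bmECs, and their part in the result was not tested. Ibsp, which is on both lists, did not pass (log2 fold change -0.33, adjusted p = 0.565). Of the 7 laminin and collagen IV chains of the list, grouped after their values were seen, 6 were lower and Lamb2 did not pass (log2 fold change -0.41, adjusted p = 0.0847). The laminin chain Lamb1 fell from 11.8, 13.01 and 15.9 FPKM in mpECs to 0.907, 1.79 and 1.70 FPKM in bmECs, and the collagen IV chain Col4a1 from 66.0, 85.5 and 103 FPKM to 16.5, 20.7 and 20.7 FPKM.  The ligand that rose was Mfge8, an RGD protein (log2 fold change 0.46, adjusted p = 0.0233).

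In the Lats2 set, 10 of 20 matrix ligands tested were higher in cKO and 1 was lower, with a median log2 fold change of 1.08, where 11.8% and 9.98% of all genes were higher and lower. The smooth muscle sum given above moved with them, and its part was not tested. Fibronectin, the ligand of the receptor of Itga5 and Itgb1, had the largest rise, with Fn1 at 5.10 and 9.59 FPKM in the controls and 132 and 164 FPKM in cKO (log2 fold change 4.21, standard error 0.28 with adjusted p = 0.00654). Thbs1 rose by 3.44 and Spp1 by 2.68 on the log2 scale. Of the same 7 laminin and collagen IV chains, Lamb1 (1.97), Lama4 (1.96), Col4a1 (1.56), Col4a2 (1.44) and Lamc1 (1.14) were higher, and Lama5 (0.16, adjusted p = 0.644) and Lamb2 (-0.08, adjusted p = 0.744) did not pass. Npnt, the ligand of the receptor of Itga8, fell together with that subunit, from 168 and 177 FPKM to 53.1 and 23.8 FPKM (log2 fold change -2.24, standard error 0.36 with adjusted p = 0.0175). In the libraries labelled ECKO 1 of 18 matrix ligands passed, Col1a1 as lower (log2 fold change -1.95, adjusted p = 0.0388), while summed osteoblast markers, of which it is one, were at 38.0 to 52.2 FPKM in the controls and 10.8 to 24.5 FPKM in the libraries labelled ECKO.

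Ligands on the cell surface, many of which are bound by integrins of blood cells, moved in both directions. Vcam1 stood at 265, 446 and 253 FPKM in mpECs and at 1149, 1226 and 944 FPKM in bmECs (log2 fold change 1.82, standard error 0.22 with adjusted p = 0.000832). The pericyte and stromal sum, led by Kcnj8, moved with Vcam1 (151 to 225 FPKM in mpECs and 459 to 496 FPKM in bmECs), and its part was not tested. Madcam1 (log2 fold change 3.32) and Icam1 (1.08) were higher in bmECs too, and Jam2 (-1.18), Jam3 (-0.80) and Icam2 (-0.45) were lower. In Lats2 cKO, Vcam1 fell from 666 and 383 FPKM to 79.8 and 62.1 FPKM (log2 fold change -2.83, standard error 0.29 with adjusted p = 0.00912) and Icam1 fell by 0.79 on the log2 scale, while Jam3 rose by 0.88. No gene of this list passed in the YapTaz set by limma, where 4 of 7 had an unadjusted p under 0.05 beside 17.9% of all genes.

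**Figure D5:**
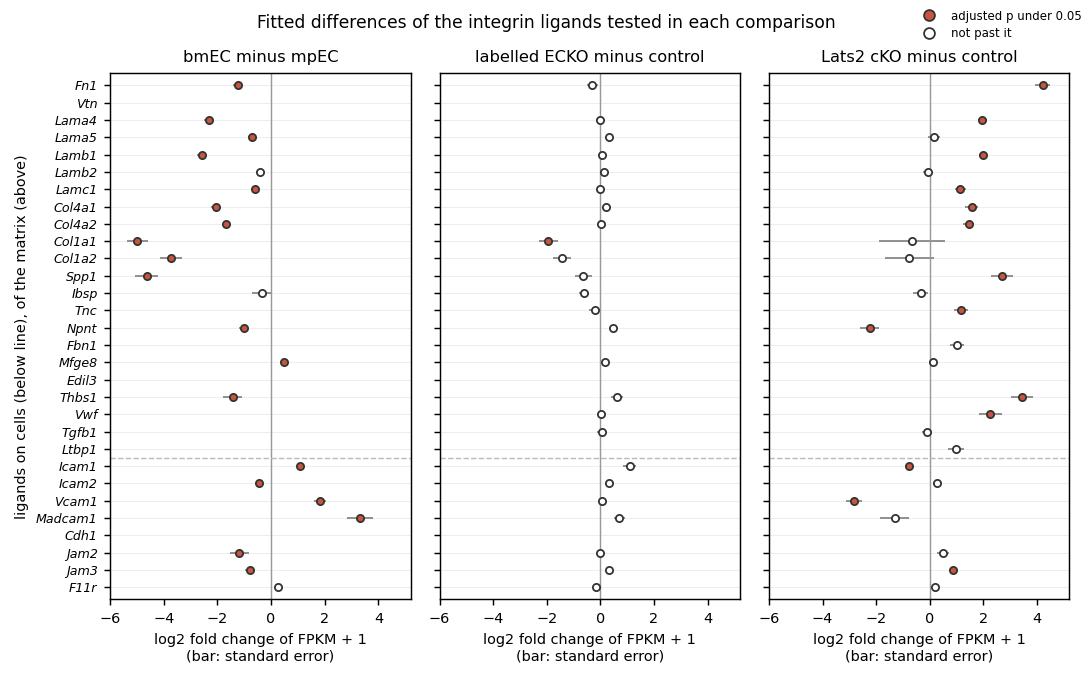
Log2 fold change of FPKM + 1 with its standard error for the ligands tested, with matrix ligands above the dashed line and ligands on cells under it; filled points have an adjusted p under 0.05. Most matrix ligands lie left of 0 in bmECs minus mpECs, with Col1a1 at -4.99, and many lie right of 0 in Lats2 cKO minus control, with Fn1 at 4.21.

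Genes that act beside the adaptors were also read from lists, and their counts stand beside 13.0% higher and 10.5% lower of all genes in bmECs against mpECs, 11.8% and 9.98% in Lats2 cKO and 0.883% and 0.424% in the YapTaz set. Of 20 focal adhesion genes tested in bmECs against mpECs, 1 was higher, the actin crosslinker Actn1 (log2 fold change 0.88), and 6 were lower, among them Lims2, a partner of ILK (-1.55), the paxillin relative Tgfb1i1 (-1.52) and zyxin, Zyx (-0.56). In Lats2 cKO, 5 of 21 were higher, namely Lims2 (0.94), Tgfb1i1 (0.87), Zyx (0.78), Vasp (0.77) and Rsu1 (0.54), and Crk was lower (-0.50). Tgfb1i1 stood at 22.6, 26.0 and 29.7 FPKM in mpECs and 7.97, 8.55 and 8.62 FPKM in bmECs, and at 22.2 and 24.6 FPKM in the Lats2 controls and 42.5 and 44.5 FPKM in cKO, so that its groups did not overlap in either comparison. None of the 22 tested in the YapTaz set passed in limma, and 9 had an unadjusted p under 0.05, beside 17.9% of all genes.

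Of 19 integrin activators and regulators tested in bmECs against mpECs, 3 were higher and 2 lower, shares near those of all genes. Kank1, which binds talin (log2 fold change 1.33), Cd47 (0.52) and Dab2 (0.46) were higher, and filamin A, Flna (-0.72), and Rapgef1 (-0.62), an activator of the small GTPase Rap1, were lower. In Lats2 cKO, Rapgef1 (0.95) and the tetraspanin Cd9 (0.85) were among the genes of this list that were higher, and Dab2 (-1.34), Tns2 (-0.99) and Kank3 (-0.74) were lower, of 19 tested. In the YapTaz set 2 of 20 passed, both higher in the libraries labelled ECKO, namely Rasgrp3 (log2 fold change 0.69, adjusted p = 0.0347), another Rap1 activator, and Kank3 (0.49, adjusted p = 0.0406).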

How the data were processed

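The authors sorted ECs, made TruSeq Stranded Total RNA libraries, mapped reads to mm10 (GRCm38) with TopHat and counted them per gene with HTSeq 0.6.1. The values they deposited are FPKM, and the step from counts to FPKM and the strand setting are not given in the sources used here. The deposited FPKM tables were normalized separately, so each comparison was fitted alone. The test was limma 3.58.1 (R 4.3.3, empirical Bayes with a trend, two-sided) on log2(FPKM + 1), for genes averaging 1 FPKM or more, with Benjamini-Hochberg adjustment over all genes tested. A gene passed at an adjusted p under 0.05. Older symbols were resolved through RefSeq synonyms. Exon overlaps and gene lengths came from GENCODE M21. Reads were recovered from gene lengths and a library constant, and 62.4% to 70.0% of values up to 20 reads lay within 0.02 of a whole number, where 4% would by chance. Values per library are given for members that passed in any comparison or had a group mean of at least 20 FPKM (others are marked as named after their values were seen), and the pathway genes named are the called ones with the 3 largest changes per list, comparison and direction, or all where 5 or fewer. Ptprc was chosen after its values were seen. The members and lists were chosen with earlier results of these data known. Replicates are separate libraries, and p-values measure the spread between them. Alternatives were another pseudocount, filters, scalings, limma-voom on recovered reads, a replicate block and leaving out each library. A gene that the naming rule would include is not reported here.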

Additional observations from a re-analysis of the deposited data

How the results depend on the processing

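In limma on bmECs and mpECs, 4 members were lower, and 2 to 4 without any 1 library. Over all genes, 1201 were lower, and 799 to 1026 without any 1 library. In the YapTaz set the 1 lower member became 0 at a filter of 0.1 FPKM, at a filter of 5 FPKM, where Itgal was under the filter and not tested, without a filter and without the trend, and 0 to 1 without any 1 library, while limma-voom on recovered reads gave 1 higher. Over all genes, the 48 lower became 26, 61, 1 and 7 in the same order, and 1 to 78 without any 1 library. The 100 higher became 289 with limma-voom. In the Lats2 set the 3 higher members became 1 at a filter of 0.1 FPKM or without a filter and 8 with limma-voom, and the 3 lower became 7 with limma-voom. Over all genes, the 1468 higher became 1114, 720 and 1620 in the same order, and the 1243 lower became 1528 with limma-voom. The cause was not tested. The share of Itgb1 without Itgb2 and Itgb7 was 98.4% in mpECs, 97.8% in bmECs, 66.1% and 68.5% in the YapTaz controls and libraries labelled ECKO, and 96.6% and 95.1% in the Lats2 controls and cKO.

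Whether replicate numbers pair the libraries was not settled, and the main fit did not pair them. Deviations of same-numbered libraries correlated at 0.307, 0.0876 and 0.102 for bmECs and mpECs, where other pairs ranged from -0.206 to 0.115. In the YapTaz set they correlated at -0.175 to -0.123, where other pairs ranged from -0.154 to 0.235. Not every library correlated best with its own number. In the Lats2 set the values were 0.0651 or -0.0651 and cannot decide it, because 2 libraries deviate from their mean by opposite amounts. With the replicate number as a block, 8 members were lower in bmECs, 0 in the YapTaz set, and 5 were higher and 5 lower in Lats2 cKO. Over all genes, 1475 were then lower in bmECs and 16 in the YapTaz set, and 1457 were higher and 1198 lower in Lats2 cKO.

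Signs turned only for differences that passed nowhere. In bmECs against mpECs, Pxn was at 0.00030 with a pseudocount of 0.1, 0.0451 after quantile normalization and 0.00992 with limma-voom, and Vcl at 0.0380 after quantile normalization. In the YapTaz set quantile normalization gave -0.00376 for Itgad, -0.0119 for Itgb1, 0.00487 for Parva and -0.0154 for Tln1. Without any 1 library, log2 fold changes ranged from -0.32 to 0.11 for Fermt3, -0.12 to 0.0908 for Pxn and -0.0498 to 0.0613 for Vcl in bmECs against mpECs. In the YapTaz set they ranged from -0.0423 to 0.18 for Itga1, -0.0301 to 0.0956 for Itgad, -0.0478 to 0.12 for Itgb1, -0.0897 to 0.0908 for Parva, -0.27 to 0.0106 for Parvb and -0.0790 to 0.11 for Tln1. In the Lats2 set they ranged from -0.0564 to 0.61 for Itgb5 and -0.23 to 0.18 for Tln1.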

Other observations

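Members under the filter of 1 FPKM were not tested, and the values of some, named after they were seen, stand here as a description. Itgb4 was at 0.808, 0.8001 and 0.895 FPKM in mpECs and 0.173, 0.256 and 0.194 FPKM in bmECs, a level 4.02-fold higher in mpECs with no overlap, from 10 to 70 recovered reads per library. The alpha 4 subunit gene Itga4, whose product on blood cells binds VCAM1, was at 0.690 and 0.613 FPKM in the Lats2 controls and 0.284 and 0.172 FPKM in cKO. The minor talin Tln2 was at 0.692 and 0.579 FPKM in the Lats2 controls and 1.65 and 1.10 FPKM in cKO, where it did pass the filter (log2 fold change 0.53, adjusted p = 0.204). Fermt1, the kindlin of epithelium, was listed at 0 in all 16 libraries.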
